A study of Mus musculus with 9 samples.

Results

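The 10 immediate early genes Egr1, Fos, Fosb, Jun, Junb, Jund, Ier2, Ier3, Atf3 and Dusp1 were followed in crypts of the mouse jejunum after loss of Smad4, with and without stabilised beta-catenin. They were chosen by gene symbol, and all 10 were found among the 23951 genes of each of 2 deposited expression tables. The 9 libraries fell into 3 groups of 3, numbered 0 to 2. Smad4 KO mice (Smad4f/f;Villin-CreER(T2), given tamoxifen) lost Smad4, the partner that all receptor-activated SMADs of the BMP and TGF-beta pathways use. Double mutants (Smad4f/f; Ex3f/+;Villin-CreER(T2), given tamoxifen) also carried 1 Ctnnb1 allele from which the recombinase removes exon 3, which leaves a stabilised beta-catenin, the effector of Wnt signalling. The Villin promoter directs the tamoxifen-dependent recombinase to the intestinal epithelium, so other cells in a crypt preparation keep the intact alleles. Tamoxifen was given on 4 consecutive days and crypts were taken 1 day later. Controls are labelled only as control mice; their treatment is given as vehicle in the labels, while the design text calls them uninjected. The recombinase and tamoxifen are stated for the mutants alone and cannot be told apart from genotype. Ages were not given in the sources used here, and the labels do not say that each library came from its own mouse, so p-values measure the spread between these libraries.

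Immediate early genes are switched on within minutes of a growth factor, cytokine or stress signal, by transcription factors that are already present and need no new protein. MAP kinases activate ternary complex factors that act with serum response factor, and other kinases activate CREB. The products include the Jun and Fos proteins, which pair to form the transcription factor AP-1, the zinc finger factor Egr1, and inhibitors such as the phosphatase Dusp1 that shut the signal down. The same genes are also known to respond to the handling and dissociation of tissue; all libraries were stated to come from the same release of crypts with 3 mM EDTA and a 70 micron filter.

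Promoter sequences are shown for Jun, which rose in the double mutants, and for Fos and Dusp1, which did not pass the test in either mutant. RefSeq (GRCm38.p6) entries were searched for 8 of the 10 genes, each running from 250 bases before to 50 bases after the start of the gene. Egr1 and Ier2 were not among the 8. Capitals mark matches to the cAMP response element, the site of CREB and ATF factors, searched on both strands as TGACNTCA or as its core TGACGT, with which it overlaps.
Jun (chr4:95052173-95052472, minus strand): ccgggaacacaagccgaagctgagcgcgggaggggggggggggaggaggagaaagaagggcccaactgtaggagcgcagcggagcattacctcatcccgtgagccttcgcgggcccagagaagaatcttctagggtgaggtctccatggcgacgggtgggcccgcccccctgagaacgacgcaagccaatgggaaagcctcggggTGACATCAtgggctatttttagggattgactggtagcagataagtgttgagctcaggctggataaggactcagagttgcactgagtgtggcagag
Fos (chr12:85473640-85473939, plus strand): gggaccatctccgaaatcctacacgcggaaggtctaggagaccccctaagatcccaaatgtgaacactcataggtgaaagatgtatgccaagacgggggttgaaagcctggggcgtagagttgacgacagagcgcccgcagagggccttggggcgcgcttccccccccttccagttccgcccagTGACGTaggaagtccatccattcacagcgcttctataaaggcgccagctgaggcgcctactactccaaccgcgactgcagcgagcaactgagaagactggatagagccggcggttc
Dusp1 (chr17:26508423-26508722, minus strand): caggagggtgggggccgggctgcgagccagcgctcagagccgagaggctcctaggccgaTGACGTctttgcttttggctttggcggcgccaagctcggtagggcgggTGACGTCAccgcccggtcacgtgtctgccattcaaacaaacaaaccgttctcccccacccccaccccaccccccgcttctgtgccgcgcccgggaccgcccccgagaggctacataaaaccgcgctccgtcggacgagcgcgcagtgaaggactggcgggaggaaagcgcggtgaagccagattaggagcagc
The match in Jun, TGACATCA, lay at -45 to -38 from the start. It passed only because any base was allowed in the middle, and it is not the full element TGACGTCA. The core match in Fos lay at -66 to -61, and Dusp1 held the full element TGACGTCA at -143 to -136 with a further core at -191 to -186. Among the other entries, Atf3 held a core at -8 to -3, and Fosb held an EGR site (GCGNGGGCG) at -50 to -42; Junb, Jund and Ier3 held no match to any motif searched. Of 32544 RefSeq promoters of the same length, 8.62% held TGACNTCA, 7.55% held TGACGT and 5.60% held the EGR site. The AP-1 site TGANTCA was in 7.79% of promoters and the CArG box of serum response factor in 1.64%. The SMAD palindrome GTCTAGAC was in 0.215% and the TCF site CTTTGAT in 3.73%. None of these 4 was found in the 8 entries. Egr1, Ier2 and sites more than 250 bases before a start were not searched, so their absence from these genes is not shown. The motif forms were chosen after the sequences had been seen. A match is a description of letters and does not show binding.

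Levels are in FPKM, a unit that corrects fragment counts for the length of the transcript and the size of the library, so that levels of different genes can be set side by side. Smad4 KO and double-mutant libraries stood in separate tables, each with the same 3 controls, and the control values below are those of the table in question. Smad4 was at 10.6 ± 0.56 FPKM in Smad4 KO crypts against 49.8 ± 5.02 in controls. In double mutants Smad4 was at 10.4 ± 0.64 FPKM against 52.0 ± 5.96 in controls (SD, n = 3 each). Ctnnb1 was at 276 ± 36.8 FPKM in double mutants against 304 ± 20.8 in controls (limma adjusted p = 0.509). Values of whole genes cannot show the loss of exon 3, so that allele was not checked here. Summed FPKM ran between 568081 and 758719 per library, between 11196 and 11935 genes reached 1 FPKM, and the absolute depth is unknown. Judged by Xist and Y-linked transcripts, each mutant group held 2 female libraries and 1 male, and the control group 1 female and 2 male. In bulk RNA, fewer cells of a type and less RNA per cell cannot be told apart.

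In the double mutants, 5 of the 9 immediate early genes that could be tested rose: Egr1, Jun, Junb, Jund and Ier2; of all genes tested, 9.39% were called higher. The rise was 3.80-fold in mean FPKM for Egr1 and between 1.56-fold and 1.86-fold for the other 4. None fell. Fos, Ier3, Atf3 and Dusp1 did not pass the test, and Fosb was below the filter of a mean of 1 FPKM. In Smad4 KO crypts, Egr1, Jun, Jund and Ier2 also lay above every control, as did 14.2% of all genes tested. None of the 9 passed the limma test, which called 0.00844% of all genes higher. An unadjusted limma p below 0.05 was reached by 4 of the 9 and by 2264 of all 11849 genes tested.

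**Figure D1:**
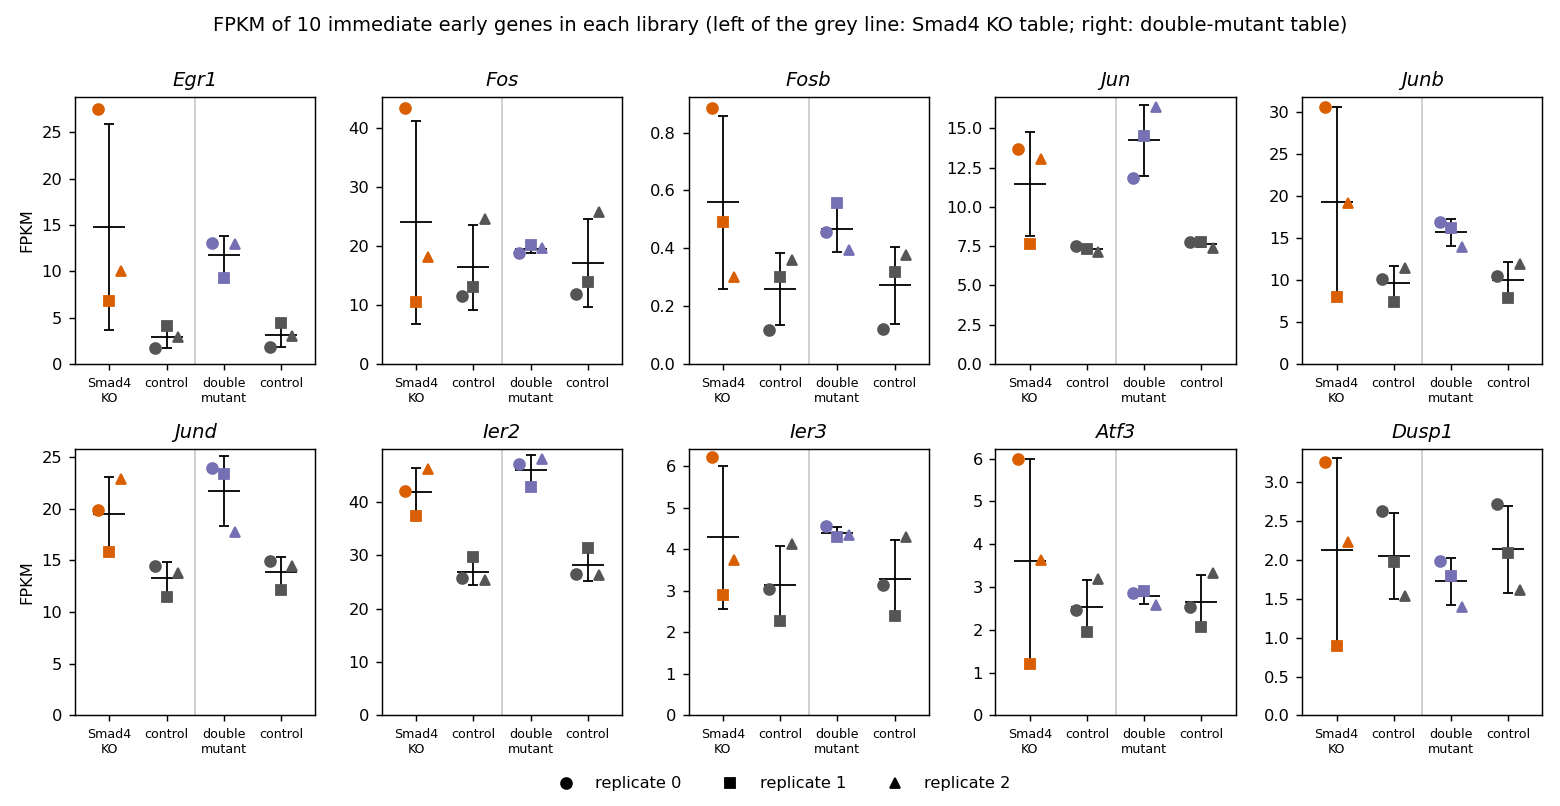
FPKM (vertical axes, each starting at 0) of the 10 immediate early genes in every library. Points are libraries, with the replicate number given by their shape; bars are the mean and SD of 3 libraries. Egr1 stood between 6.79 and 27.5 FPKM in Smad4 KO and between 9.32 and 13.0 FPKM in double-mutant libraries, above all controls.

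Egr1 encodes a zinc finger transcription factor induced through MAP kinases and serum response factor. It had 27.5, 6.79 and 10.05 FPKM in Smad4 KO libraries 0, 1 and 2, against 1.76, 4.13 and 2.94 FPKM in controls 0, 1 and 2. The double mutants had 13.0, 9.32 and 12.9 FPKM, against 1.81, 4.38 and 3.07 FPKM in the controls of their table. Neither mutant group overlapped the controls, and Smad4 KO 0 stood far above the other 2 Smad4 KO libraries. The log2 fold change, computed here and throughout after adding 1 FPKM, so that changes of low genes come out too small, was 1.82 in Smad4 KO (SE 0.51, 95% interval 0.57 to 3.07, limma adjusted p = 0.172) and 1.68 in double mutants (SE 0.26, 95% interval 1.05 to 2.31, limma adjusted p = 0.0168). By an exact permutation test over libraries, two-sided, p was 0.1 in both comparisons, the smallest that 3 against 3 can give.

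Jun, the founding member of the AP-1 family, had 13.7, 7.66 and 13.1 FPKM in Smad4 KO libraries, against 7.52, 7.34 and 7.10 FPKM in controls. In the double mutants it had 11.8, 14.5 and 16.4 FPKM, against 7.75, 7.78 and 7.41 FPKM in controls. The controls lay close together, and every mutant library was above them, although Smad4 KO 1 exceeded the highest control by little. Its log2 fold change was 0.54 in Smad4 KO (SE 0.22, limma adjusted p = 0.256) and 0.81 in double mutants (SE 0.13, 95% interval 0.50 to 1.12, limma adjusted p = 0.0171).

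Junb, an AP-1 subunit that can oppose Jun, had 30.6, 8.01 and 19.2 FPKM in Smad4 KO libraries, against 10.1, 7.38 and 11.4 FPKM in controls. Smad4 KO 1 lay within the control range, so these groups overlapped. The double mutants had 16.9, 16.2 and 13.9 FPKM, against 10.4, 7.82 and 11.9 FPKM in controls, with no overlap. In log2 units the change was 0.77 in Smad4 KO (SE 0.46, limma adjusted p = 0.408) and 0.61 in double mutants (SE 0.16, 95% interval 0.213 to 1.001, limma adjusted p = 0.0489).

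Jund, the Jun protein that is present in most resting cells and least dependent on stimulation, had 19.9, 15.8 and 22.9 FPKM in Smad4 KO libraries, against 14.5, 11.5 and 13.8 FPKM in controls. In the double mutants it had 24.0, 23.4 and 17.8 FPKM, against 14.96, 12.1 and 14.4 FPKM in controls. All 6 mutant libraries were above their controls. Fold changes on the log2 scale were 0.51 in Smad4 KO (SE 0.17, limma adjusted p = 0.193) and 0.61 in double mutants (SE 0.15, 95% interval 0.26 to 0.96, limma adjusted p = 0.0380). Summed over Jun, Junb and Jund, the level was 64.1, 31.5 and 55.1 FPKM in Smad4 KO libraries against 32.1, 26.2 and 32.3 FPKM in controls, and 52.7, 54.1 and 48.0 FPKM in double mutants against 33.1, 27.7 and 33.7 FPKM in controls. The sum of Smad4 KO 1 fell within the control range, while that of every double mutant was above it.

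Fos, the classical partner of Jun in AP-1, showed a different picture. It had 43.3, 10.6 and 18.1 FPKM in Smad4 KO libraries, against 11.5, 13.1 and 24.6 FPKM in controls, so that Smad4 KO 0 was the highest and Smad4 KO 1 the lowest of the 6. The double mutants had 18.8, 20.2 and 19.6 FPKM, against 11.8, 13.8 and 25.7 FPKM in controls, and lay inside the control range. The log2 fold change was 0.37 in Smad4 KO (SE 0.54, 95% interval -0.94 to 1.69, limma adjusted p = 0.736) and 0.26 in double mutants (SE 0.27, 95% interval -0.39 to 0.91, limma adjusted p = 0.526). Over the 6 fits that leave out 1 library, the double-mutant value ran between 0.05 and 0.57, and Fos was called in 1. That fit left out control 2, the control with the most Fos (log2 fold change 0.57, limma adjusted p = 0.0428). Fosb, a Fos paralogue, was at 0.884, 0.492 and 0.300 FPKM in Smad4 KO libraries against 0.118, 0.300 and 0.360 FPKM in controls, and at 0.456, 0.555 and 0.392 FPKM in double mutants against 0.122, 0.318 and 0.375 FPKM in controls. Its double-mutant libraries were all above the controls, at levels below 1 FPKM (exact permutation p = 0.1, two-sided).

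Ier2, a small nuclear protein induced with the Fos and Jun genes, had the highest mean of the 10 in every group. It had 42.0, 37.4 and 46.2 FPKM in Smad4 KO libraries, against 25.7, 29.6 and 25.3 FPKM in controls. The double mutants had 47.1, 42.7 and 47.9 FPKM, against 26.5, 31.3 and 26.4 FPKM in controls. Each mutant library stood clear of all controls. On the log2 scale the change was 0.62 in Smad4 KO (SE 0.12, 95% interval 0.32 to 0.92, limma adjusted p = 0.118) and 0.69 in double mutants (SE 0.10, 95% interval 0.44 to 0.95, limma adjusted p = 0.0160).

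Ier3, which modulates ERK signalling and cell survival, had 6.22, 2.90 and 3.73 FPKM in Smad4 KO libraries against 3.04, 2.26 and 4.12 FPKM in controls, and 4.56, 4.29 and 4.34 FPKM in double mutants against 3.13, 2.40 and 4.29 FPKM in controls. The log2 fold change was 0.33 in Smad4 KO (SE 0.29, limma adjusted p = 0.565) and 0.36 in double mutants (SE 0.18, limma adjusted p = 0.197). Atf3, a stress-induced factor that can pair with Jun proteins, had 5.98, 1.20 and 3.63 FPKM in Smad4 KO libraries against 2.46, 1.94 and 3.20 FPKM in controls, and 2.87, 2.92 and 2.58 FPKM in double mutants against 2.54, 2.06 and 3.34 FPKM in controls. Its log2 fold change was 0.25 in Smad4 KO (SE 0.43, limma adjusted p = 0.791) and 0.07 in double mutants (SE 0.16, limma adjusted p = 0.784). Both genes overlapped the controls in either comparison.

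Dusp1, the phosphatase that inactivates MAP kinases and is itself an immediate early gene, was the single tested gene of the 10 with a negative log2 fold change in both comparisons. It had 3.25, 0.898 and 2.23 FPKM in Smad4 KO libraries against 2.63, 1.97 and 1.54 FPKM in controls, and 1.98, 1.79 and 1.39 FPKM in double mutants against 2.72, 2.09 and 1.61 FPKM in controls. The groups overlapped in both comparisons. The log2 fold change was -0.02 in Smad4 KO (SE 0.33, 95% interval -0.84 to 0.79, limma adjusted p = 0.977) and -0.19 in double mutants (SE 0.19, 95% interval -0.65 to 0.26, limma adjusted p = 0.489), and the sign in Smad4 KO turned under several other settings.

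**Figure D2:**
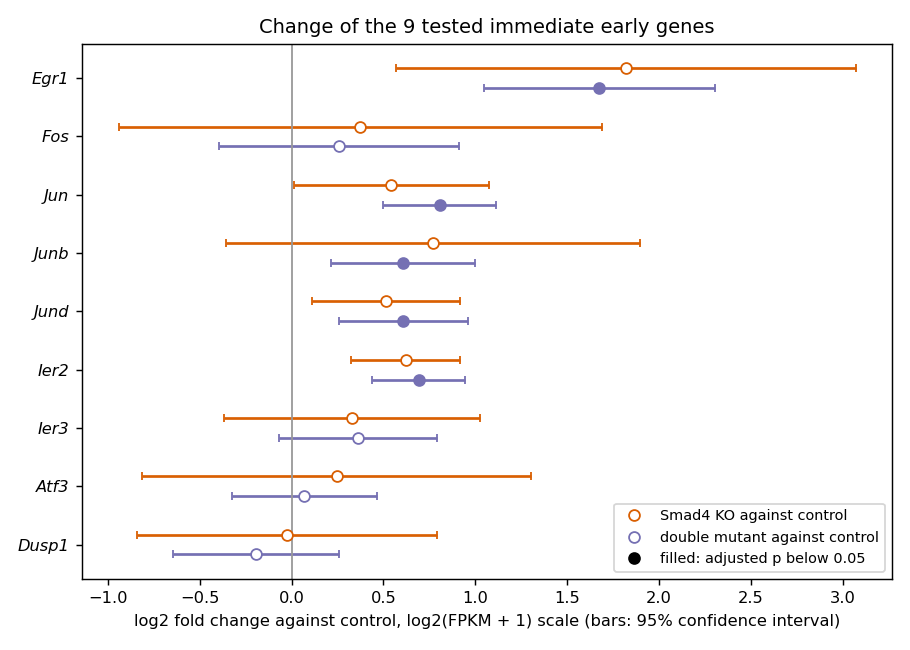
Log2 fold change against control on the log2(FPKM + 1) scale (horizontal axis) of the 9 tested immediate early genes, with 95% confidence intervals from limma. Filled points, adjusted p below 0.05, are Egr1, Jun, Junb, Jund and Ier2 in the double mutants; no Smad4 KO point is filled, and the Smad4 KO intervals are the wider ones.

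Counted over the 9 tested genes, 5 were called higher in the double mutants, where 9.39% of the 11762 genes tested were called higher, and 0 were called lower, where 9.09% were. The same 5 had all double-mutant libraries above all controls, a pattern of 21.3% of the genes tested; 0 had them all below, a pattern also of 21.3%. In Smad4 KO 0 of 9 were called in either direction by limma, against 0.00844% of 11849 genes called higher and 0.0253% called lower, and 4 of the 9 reached an unadjusted p below 0.05, as did 2264 of all genes tested. All Smad4 KO libraries were above all controls for 4 of the 9, against 14.2% of genes, and below for 0, against 12.2%. The median log2 fold change of the 9 was 0.51 in Smad4 KO and 0.61 in double mutants, with medians of -0.003 and -0.001 over all genes tested. Each of the 9 had a control mean above 1 FPKM, so none was tested only because it was high in the mutants. The 2 comparisons share their controls, and no test was made between Smad4 KO and double mutants.

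Fewer of the 9 were called in the double mutants when any 1 library was left out. Such fits have fewer libraries and less power, so a lost call does not show that it rested on the library left out. Egr1, Jun and Ier2 were each called in 4 of the 6 fits that leave out 1 library, and Junb and Jund in 0. Without double mutant 0, 1 or 2 the number of the 9 called was 1, 2 and 0, and over all genes 80, 486 and 26 were called, against 2173 with every library. Without control 0, 1 or 2 it was 3, 3 and 4, the last including Fos. The log2 fold changes themselves moved less: over these fits Egr1 ran between 1.43 and 1.90, Jun between 0.70 and 0.92, and Ier2 between 0.65 and 0.77. With sex as a covariate 3 were called, with Junb at an adjusted p of 0.0894 and Jund at 0.0645 in limma.

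Ier2 stood first and Fosb last by mean level in every group. In the controls of the Smad4 KO table Ier2 led with 26.8 ± 2.36 FPKM, followed by Fos with 16.4 ± 7.18, Jund with 13.3 ± 1.60, Junb with 9.64 ± 2.06 and Jun with 7.32 ± 0.21 FPKM (SD, n = 3). Fos overlapped Jund, and Junb overlapped Jun. Ier3, Egr1, Atf3 and Dusp1 lay together, with means between 2.05 and 3.14 FPKM and overlapping libraries, and Fosb was last at 0.259 FPKM. Egr1 stood 7th in these controls, 5th in Smad4 KO with 14.8 ± 11.1 FPKM, and 6th in double mutants with 11.7 ± 2.1 FPKM (SD, n = 3 each). In the double mutants Jund, with 21.7 ± 3.42 FPKM, stood above Fos, with 19.5 ± 0.71 FPKM, but their libraries overlapped.

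**Figure D3:**
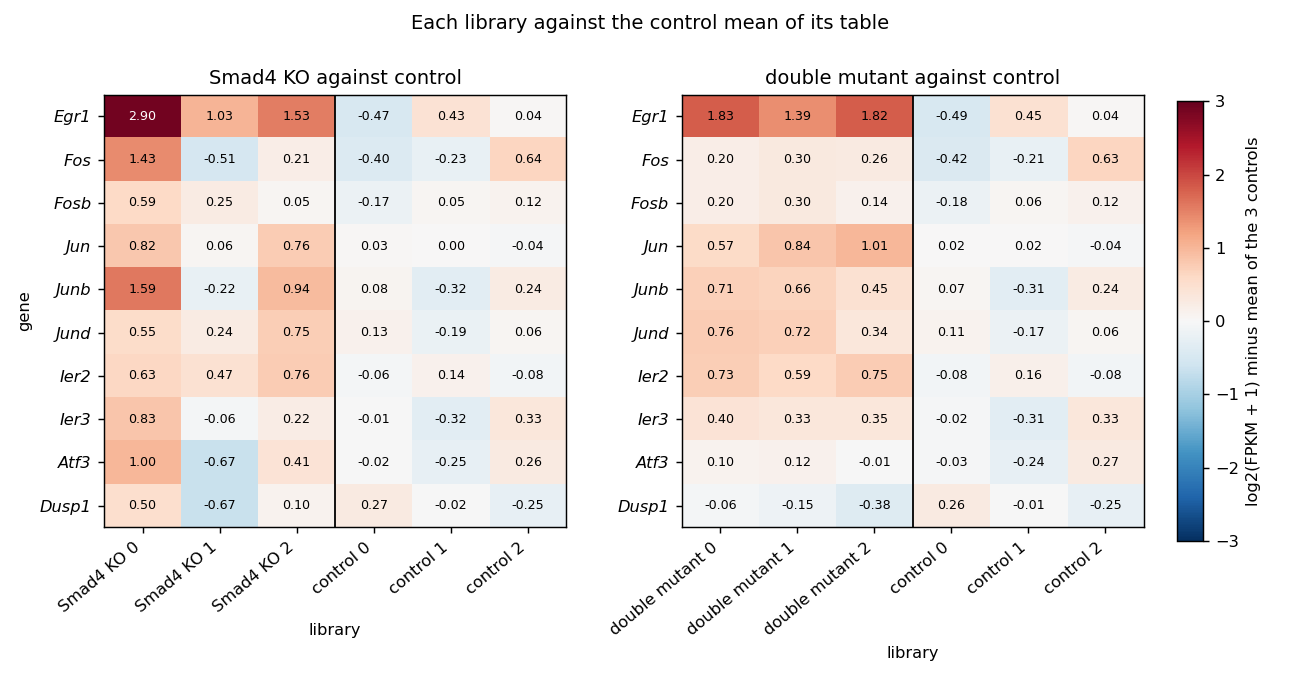
Log2(FPKM + 1) of each library minus the mean of the 3 controls of its table, for the 10 immediate early genes (rows) in each library (columns); red is higher and blue lower than the control mean. Smad4 KO 0 is above the control mean for every gene, Smad4 KO 1 is near or below it for several, and the 3 double mutants resemble each other.

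The Smad4 KO libraries differed from each other much more than the double mutants did. The SD of log2(FPKM + 1) over 3 libraries had a median over the 10 genes of 0.523 in Smad4 KO against 0.258 in controls, and of 0.114 in double mutants against 0.254 in controls. Over all genes tested the medians were 0.213 in Smad4 KO against 0.180 in controls, and 0.145 in double mutants against 0.183 in controls. The Smad4 KO SD exceeded the control SD for 10 of the 10 genes and for 60.8% of all genes tested; the double-mutant SD did so for 2 of the 10 and for 36.8% of all. Smad4 KO 0 was the highest Smad4 KO library for 8 of the 10 genes, where it was highest for 36.6% of all genes, and Smad4 KO 1 the lowest for 9 of the 10, where it was lowest for 29.7% of all. The median deviation of the 9 tested genes from the control mean was 0.83, -0.06 and 0.75 in Smad4 KO libraries 0, 1 and 2. In double mutants 0, 1 and 2 it was 0.57, 0.59 and 0.35. All 10 genes were above every control in Smad4 KO 0, but 5 were in Smad4 KO 1 and 6 in Smad4 KO 2. In Smad4 KO 1, 3 of the 10 were below every control. In double mutants 0, 1 and 2 the numbers above every control were 7, 6 and 7, and 1 gene was below in double mutant 2. The share of all genes tested was not counted for single libraries, so these counts cannot be set against a background.

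Markers of cell types also differed between libraries. Summed over 16 enterocyte markers, the level was 14965, 1252 and 2437 FPKM in Smad4 KO libraries 0, 1 and 2 against 4198, 5592 and 11664 FPKM in controls, and 1267, 2396 and 2298 FPKM in double mutants against 4329, 5926 and 12166 FPKM in controls. Smad4 KO 0 was above all controls for 5 of the 16 markers and below all for 2, and its sum is carried by Fabp1, Apoa1, Apoa4 and Fabp2; the mean log2 deviation over the 16 was 0.48 in Smad4 KO 0 and 0.80 in control 2. In Smad4 KO 1 and 2 all 16 markers were below all controls. In the double mutants 13 of the 16 were called lower, and every library had a lower sum than any control. Over 12 Paneth cell markers the sum was 10211, 72635 and 152627 FPKM in Smad4 KO libraries against 161446, 78741 and 62299 FPKM in controls, and 105938, 38254.5 and 56954.6 FPKM in double mutants against 166474, 83433 and 64979 FPKM in controls; Defa5 was listed at 0 in every library. The 12 lymphocyte markers found summed to 209, 17.3 and 110 FPKM in Smad4 KO libraries, against 182, 103 and 180 in controls. They summed to 59.5, 28.3 and 69.6 FPKM in double mutants, against 188, 109 and 188 in controls. Of the 10 tested in the double mutants, 6 were called lower. Enteroendocrine markers, 9 in the tables, summed to 525, 350 and 383 FPKM in Smad4 KO libraries against 223, 204 and 288 FPKM in controls, and to 332, 267 and 425 FPKM in double mutants against 230, 216 and 300 FPKM in controls. Their sum was highest in Smad4 KO 0 and lowest in Smad4 KO 1 among the Smad4 KO libraries, their median log2 fold change was 0.72 in Smad4 KO and 0.53 in double mutants, and 2 were called higher in the double mutants. Of 10 stem cell markers tested in the double mutants 2 were called higher. Of 6 tuft cell markers tested 2 were called lower, and of 8 goblet cell markers 1 was called lower. Over all genes tested in the double mutants, 9.39% were called higher and 9.09% lower. In Smad4 KO 0 of the tested markers of any of the 11 lists were called by limma. Of all genes tested there, 0.00844% were called higher and 0.0253% lower. Of the endothelial markers 0 passed the filter in Smad4 KO, of the red blood cell markers 2 and of the myeloid markers 3. The part of these cell types in the immediate early values was not tested.

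The 13 markers of fibroblasts and smooth muscle summed to 28.9, 11.0 and 102 FPKM in Smad4 KO, against 10.9, 7.37 and 12.6 in controls. They summed to 67.1, 8.62 and 11.6 FPKM in double mutants, against 11.2, 7.81 and 13.2 in controls. Only 6 of the 13 passed the filter in Smad4 KO and 5 in double mutants, and 0 of these were called by limma. The rest could not be called. The sums of double mutants 1 and 2 lay within the control range, but 7 and 8 of the 13 single markers were above all controls in these libraries, among them Col1a2 and Col3a1 at levels below 1 FPKM. The 4 red blood cell markers in the tables had sums of 2.48, 1.62 and 51.2 FPKM in Smad4 KO libraries against 6.30, 1.62 and 1.44 FPKM in controls, and 36.7, 1.81 and 1.07 FPKM in double mutants against 6.50, 1.72 and 1.498 FPKM in controls. Myeloid markers summed to 20.7, 13.2 and 46.3 FPKM in Smad4 KO libraries against 17.1, 9.63 and 15.2 FPKM in controls, and to 29.6, 10.9 and 14.5 FPKM in double mutants against 17.6, 10.2 and 15.9 FPKM in controls. All 6 endothelial markers were below 1 FPKM in every library. The part of these cells in the immediate early values was not tested.

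Other genes of the same kind of response went both ways. Of 35 other immediate early genes tested in the double mutants, 5 were called higher and 8 lower, with a median log2 fold change of -0.04. Over all genes tested there, 9.39% were called higher and 9.09% lower. In Smad4 KO 0 of 36 were called, with a median of 0.14. Of all genes tested in Smad4 KO, 0.00844% were called higher and 0.0253% lower, so a count of 0 does not show absence of change. The 5 called with the smallest p went both ways. Klf6, a Kruppel-like transcription factor, fell, with 15.3 ± 1.17 FPKM in double mutants against 34.4 ± 0.27 FPKM in controls (log2 fold change -1.12, limma adjusted p = 0.00694). Btg1, an antiproliferative factor, fell, with 10.8 ± 0.25 FPKM in double mutants against 17.9 ± 2.27 FPKM in controls (log2 fold change -0.67, limma adjusted p = 0.0174), and Tnfaip3, an inhibitor of NF-kappaB signalling, fell, with 4.84 ± 0.64 FPKM in double mutants against 8.89 ± 0.89 FPKM in controls (log2 fold change -0.76, limma adjusted p = 0.0183). Plk2, a polo-like kinase, rose, with 6.11 ± 0.75 FPKM in double mutants against 1.57 ± 0.59 FPKM in controls (log2 fold change 1.48, limma adjusted p = 0.0126). Areg, which encodes the EGF receptor ligand amphiregulin, rose, with 4.51 ± 0.99 FPKM in double mutants against 1.10 ± 0.51 FPKM in controls (log2 fold change 1.40, limma adjusted p = 0.0181). In Smad4 KO the smallest p values belonged to Gadd45a, a stress-induced growth arrest gene, with 20.9 ± 6.29 FPKM in Smad4 KO against 37.4 ± 6.44 FPKM in controls, and Cyr61, a secreted matricellular protein, with 2.90 ± 1.37 FPKM in Smad4 KO against 0.964 ± 0.05 FPKM in controls; neither was called (limma adjusted p = 0.169 and 0.173), and Cyr61, with a control mean below 1 FPKM, passed the filter only through Smad4 KO.

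Among 14 tested Jun, Fos and ATF family genes outside the 10, 1 was called higher and 2 lower in the double mutants. Their median log2 fold change there was -0.19. Over all genes tested in the double mutants, 9.39% were called higher and 9.09% lower. In Smad4 KO 0 of the 14 were called, beside 0.00844% of all genes called higher and 0.0253% lower. Their median there was 0.06. Fosl2, a Fos paralogue more abundant than Fos in these controls, fell, with 17.9, 20.0 and 18.1 FPKM in double mutants against 32.9, 32.5 and 30.2 FPKM in controls (log2 fold change -0.74, SE 0.09, limma adjusted p = 0.0116). In Smad4 KO Fosl2 had 29.3, 17.03 and 19.2 FPKM against 32.0, 30.6 and 29.0 FPKM in controls (log2 fold change -0.50, limma adjusted p = 0.260). Atf5, a stress-regulated ATF family member, rose, with 17.7 ± 2.25 FPKM in double mutants against 9.23 ± 1.18 FPKM in controls (log2 fold change 0.87, limma adjusted p = 0.0160). In Smad4 KO Atf5 had 15.5 ± 4.52 FPKM against 8.85 ± 1.24 FPKM in controls and was not called. Atf6, a sensor of endoplasmic reticulum stress, fell, with 11.9 ± 0.77 FPKM in double mutants against 16.8 ± 1.66 FPKM in controls (log2 fold change -0.47, limma adjusted p = 0.0326).

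Upstream of these genes, 28 receptors, MAP kinases and serum response factor partners were tested. In Smad4 KO 0 of the 28 were called, beside 0.00844% of all genes called higher and 0.0253% lower. In the double mutants 0 were called higher and 3 lower. Over all genes tested there, 9.39% were called higher and 9.09% lower. Erbb3, a receptor of neuregulins, fell, with 33.2 ± 7.23 FPKM in double mutants against 85.2 ± 17.5 FPKM in controls (log2 fold change -1.33, limma adjusted p = 0.0178). Mapk3, which encodes the kinase ERK1, fell, with 128 ± 10.8 FPKM in double mutants against 186 ± 9.39 FPKM in controls (log2 fold change -0.54, limma adjusted p = 0.0270). Rps6ka5, a kinase that acts on CREB and histone H3, was called lower, with 0.958 ± 0.18 FPKM in double mutants against 2.17 ± 0.36 FPKM in controls (log2 fold change -0.69, limma adjusted p = 0.0391); its mean was below 1 FPKM in the double mutants, so it passed the filter only through the controls. In Smad4 KO the smallest p values also belonged to Mapk3, with 123 ± 7.43 FPKM in Smad4 KO against 178 ± 7.14 FPKM in controls, and Rps6ka5, with 0.930 ± 0.08 FPKM in Smad4 KO against 2.07 ± 0.32 FPKM in controls; neither was called. Of 13 MAP kinase phosphatases and ERK feedback inhibitors tested, 1 was called higher in the double mutants, beside 9.39% of all genes tested. It was Dusp4, a nuclear phosphatase of MAP kinases, with 5.60 ± 0.775 FPKM in double mutants against 3.16 ± 0.09 FPKM in controls (log2 fold change 0.66, limma adjusted p = 0.0229). In Smad4 KO 0 of the 13 were called, beside 0.00844% of all genes called higher and 0.0253% lower. Dusp4 had 4.95 ± 0.95 FPKM in Smad4 KO against 3.03 ± 0.13 FPKM in controls. Dusp3, a dual-specificity phosphatase, had 3.97 ± 0.79 FPKM in Smad4 KO against 1.99 ± 0.65 FPKM in controls and was not called.

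Of heat shock genes, some of which are known to rise with the handling of tissue, 12 were tested. In Smad4 KO 11 had a positive log2 fold change, with a median of 0.44. There 0 of the 12 were called, beside 0.00844% of all genes called higher and 0.0253% lower. In the double mutants 10 were positive and 2 were called higher, with a median of 0.36. Of all genes tested there, 9.39% were called higher. Dnajb1 was negative in Smad4 KO (-0.02) and in double mutants (-0.12), and Dnajb4 was negative in double mutants (-0.35). The 2 called, Hspd1 and Hspe1, encode the chaperonin pair of mitochondria. Hspd1 had 161 ± 7.09 FPKM in double mutants against 109 ± 11.5 FPKM in controls (limma adjusted p = 0.0266), and Hspe1 had 157 ± 15.8 FPKM in double mutants against 109 ± 14.4 FPKM in controls (limma adjusted p = 0.0482). Hspa1b, a stress-inducible Hsp70 gene that shares reads with its near-identical copy Hspa1a, had 22.8, 12.6 and 14.4 FPKM in Smad4 KO libraries against 8.22, 2.21 and 3.65 FPKM in controls (limma adjusted p = 0.147), and Hspe1 had 151 ± 7.76 FPKM in Smad4 KO against 104 ± 12.5 FPKM in controls (limma adjusted p = 0.143). In double mutants Hspa1b had 19.7, 4.27 and 11.1 FPKM against 8.47, 2.34 and 3.81 FPKM in controls, and overlapped them (limma adjusted p = 0.248). The part of handling in the immediate early values was not tested.

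**Figure D4:**
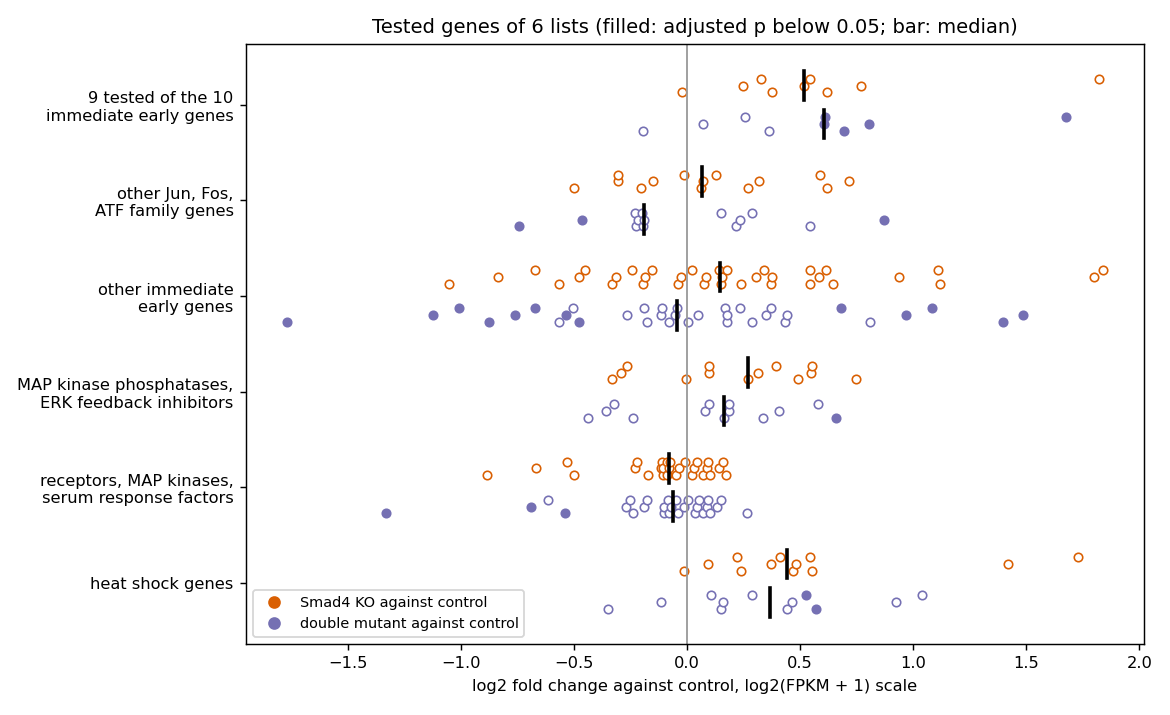
Log2 fold change against control on the log2(FPKM + 1) scale (horizontal axis) of the tested genes of 6 lists (rows). Points are genes, filled where the adjusted p is below 0.05, and black bars are medians; the 9 tested immediate early genes have medians of 0.51 in Smad4 KO and 0.61 in double mutants, while the other immediate early genes spread to both sides of 0.

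The genes whose pattern over libraries was most like that of the 9 tested immediate early genes were found by correlation. Log2(FPKM + 1) of each of the 9 was centred on its mean and divided by its SD over the 6 libraries of a table. Every other tested gene was correlated with the average of these 9 profiles, and ranked by the smaller of the 2 correlations. Plk3, a stress-responsive polo-like kinase, came first, with r = 0.972 in the Smad4 KO table and 0.986 in the double-mutant table. It had 17.3, 4.84 and 9.12 FPKM in Smad4 KO libraries against 3.85, 2.66 and 4.96 FPKM in controls, and 10.5, 8.94 and 6.65 FPKM in double mutants against 3.97, 2.82 and 5.17 FPKM in controls. Kptn (smaller r 0.971), Errfi1 (0.965), BC026585 (0.963), Man2a2 (0.963) and Rundc1 (0.959) followed. Errfi1, an inhibitor of the EGF receptor, had 28.1, 7.81 and 14.2 FPKM in Smad4 KO libraries against 10.1, 8.63 and 10.8 FPKM in controls. The 2 correlations of a gene share all 3 controls, so the second is not independent of the first. Each rests on 6 libraries, and the named genes were picked for high values among the genes tested, which by itself favours a large r. The correlations are descriptions only.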

How the data were processed

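RNA from 9 libraries of jejunal crypts (3 Smad4 KO, 3 double mutant, 3 control) was analysed. The deposited values were FPKM for 23951 genes in 2 tables, normalized separately by the authors. The submitters' processing notes name mm9 as the build, TopHat2 2.1.1, Cuffnorm 2.2.1 and Cuffdiff 2.2.1; no annotation is named there. Control values differed between tables by factors of 1.03, 1.06 and 1.04. Absolute depth cannot be read from FPKM, so counting intervals are left out; spacing of low values put relative depth between 0.959 and 1.44 times control 0. The kit, TruSeq RNA v2 per the labels' protocols, does not mark strand, so overlapping genes cannot be told apart.

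In each table, genes averaging 1 FPKM or more were fitted on log2(FPKM + 1) with limma 3.58.1 (R 4.3.3) and a mean-variance trend. Two-sided p-values were adjusted by Benjamini-Hochberg over all genes tested, and adjusted p below 0.05 was called. Exact permutation tests were added for the 10 genes. The fit was tested on simulated data. Other pseudocounts, filters, scalings and priors, a sex covariate, a replicate block and each library left out were tried as alternatives. The members, the gene lists and the marker lists were chosen with earlier results of these data known. From each list up to 5 called genes were named in order of p, or the 2 with the smallest p where none was called. Promoters came from RefSeq GRCm38.p6, another build than that of the tables, so their coordinates refer to it alone.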

Additional observations from a re-analysis of the deposited data

How the results depend on the processing

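In Smad4 KO, 0 of the 9 immediate early genes were called under any alternative run, and of 141 alternative values of single genes 6 changed sign. Dusp1 was 0.0057 with a pseudocount of 5 FPKM, 0.17 with sex as a covariate, and between -0.28 and 0.30 with 1 library left out; Fos ran between -0.15 and 0.82 and Atf3 between -0.13 and 0.70 with 1 library left out. In the double mutants 114 of 141 values kept their direction and side of the threshold, 25 lost their call, 1 gained one and 1 changed sign (Atf3, between -0.049 and 0.20 with 1 library left out). The number of members called higher, 5, was 3 with no filter, 3 with sex as a covariate and 0 to 4 with 1 library left out; their median log2 fold change, 0.61, was 0.46 with a pseudocount of 5 FPKM and 0.45 to 0.66 with 1 library left out. Over all genes, 2173 were called in the double mutants, 1392 with no filter and 26 to 1523 with 1 library left out. In Smad4 KO 4 were called, 2 with a pseudocount of 5 FPKM, 7 with equal sums outside the 50 highest genes, 8 with quantile normalization, 2 with sex as a covariate, and 5 to 12 with 1 library left out. The replicate block, which takes libraries of the same number as pairs, gave 3 members called in the double mutants (Junb at a limma adjusted p of 0.0832 and Jund at 0.0629) and 1 gene over the Smad4 KO table. Deviations of same-numbered mutant and control libraries correlated weakly, at -0.11, 0.22 and -0.10 in Smad4 KO and 0.07, 0.13 and 0.04 in double mutants. Differently numbered libraries ran between -0.15 and 0.21 in Smad4 KO and between -0.11 and 0.03 in double mutants. These values do not settle whether libraries of the same number belong together. The causes were not tested. Depth is unknown, and Fosb was below 1 FPKM in every library.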
